A study of Mus musculus with 12 samples.

Results

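The nuclear genes of the mitochondrial respiratory chain were followed in injured mouse kidneys, complex by complex. The members were the protein-coding genes whose names begin with Nduf, Uqcr, Atp5 or Cox followed by 4 to 8, together with Sdha to Sdhd and Cyc1. This rule found 95 of the 54532 genes of the tables, under 94 names, since Atp5o has 2 entries. They comprised 84 subunit entries, of which 36 belong to complex I, 4 to complex II, 9 to complex III, 18 to complex IV and 17 to complex V. The other 11 were the 8 complex I assembly factors Ndufaf1 to Ndufaf8 and 3 related genes, Ndufa4l2, Cox7a2l and Atp5s.

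RNA-seq covered 12 kidneys of C57BL/6 mice in 4 groups of 3. Bcat KO UUO and WT UUO kidneys came from mice with unilateral ureteral obstruction (UUO), in which the left ureter is permanently ligated. CD44 KO UIRI and WT UIRI kidneys came from mice with unilateral ischemia-reperfusion injury (UIRI), in which the left renal pedicle is clipped and then released. In the Bcat KO mice, floxed β-catenin is removed by Cre under the Ksp-cadherin promoter, a driver used for tubule epithelium. By staining, the paper reports loss of β-catenin in distal and connecting tubules and in most proximal tubules. Its discussion describes deletion by this driver mainly in loops of Henle, distal tubules and collecting ducts, and to some extent in proximal tubules. The CD44 KO mice are described by their labels alone. All groups had surgery, so no uninjured kidney was compared, and the labels give neither age nor time after surgery. Values were FPKM, reads scaled by gene length and library size, in a separate table for each injury, and genotypes were compared only within a table.

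Complex I passes electrons from NADH to ubiquinone and complex II passes them from succinate. Complex III hands them on to cytochrome c, complex IV reduces oxygen, and complex V, the ATP synthase, uses the resulting proton gradient to make ATP. Complex II is built of nuclear-encoded subunits, whereas the other complexes join nuclear-encoded subunits with others made inside the mitochondrion, and assembly factors help to build them without staying in the finished enzyme. Proximal tubule and thick ascending limb cells are rich in mitochondria, because salt and solute transport there consumes much ATP.

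The libraries held 15940405 to 20737443 assigned reads. Ctnnb1, the β-catenin gene, was at 76.0 ± 7.55 FPKM (SD, n = 3) in Bcat KO kidneys and 92.1 ± 5.95 in WT UUO kidneys, lower in all 3, with a limma adjusted p of 0.189. Cd44 was at 19.0, 11.97 and 13.9 FPKM in the libraries labelled CD44 KO and at 19.9, 16.3 and 17.8 in WT UIRI libraries, so the groups overlapped and the adjusted p was 0.339. Gene-level FPKM does not show which exons the reads came from, and whole kidney holds cells in which Ksp-Cre is not active. Because Cd44 did not separate the UIRI groups, their directions below are those between libraries labelled CD44 KO and WT.

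Respiratory chain transcripts were broadly higher in Bcat KO than in WT UUO kidneys. Of 91 members that passed the filter of a mean of at least 0.5 FPKM, 23 rose at a Benjamini-Hochberg adjusted p below 0.05 and 0 fell, against 6.21% higher and 4.36% lower among all 16166 genes tested. All 23 were subunits. With FPKM totals made equal, 12 members were called higher and 0 lower, while the split of all genes moved from 1004 higher and 705 lower to 487 and 991. The filter was applied after this rescaling and left 19472 genes, of which these were 2.5% and 5.09%. The rescaling and the wider set of genes were not told apart. Without rescaling, the median log2 fold change was 0.58 over the members and 0.01 over all genes tested, and 87 of the 91 values were positive. In 76 members every Bcat KO library lay above every WT library, an arrangement shown by 19.6% of all genes, and in 0 members did every Bcat KO library lie below, against 15.9% of all genes. At an unadjusted p below 0.05, 77 members were higher and 0 lower, against 17% and 12.9% of all genes. In whole-kidney RNA, more cells that express these genes and more RNA per cell cannot be told apart.

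The height of the rise differed between the Bcat KO libraries. The median of the subunits, relative to the mean of the WT libraries, was 0.69, 0.90 and 0.35 on the log2 scale in Bcat KO libraries 1, 2 and 3, and 0.01, 0.12 and −0.14 in WT libraries 1, 2 and 3. Bcat KO library 3 was thus the nearest to WT, yet above all 3 WT libraries. The summed FPKM of the subunits was 9579, 11280 and 7569 in Bcat KO libraries and 5780, 6242 and 5282 in WT libraries. The FPKM totals over all genes were 369431, 420601 and 346240 in Bcat KO libraries and 304720, 339519 and 330244 in WT libraries. The part of these totals in the differences between libraries was not tested. Without Bcat KO library 3, 60 members were higher, beside 10.1% of all genes. With any other library left out 0 to 3 were, beside 0.803% to 3.22% of all genes, and both the 0 and the 0.803% arose without WT library 2. The calls over all genes thus moved with the library left out as well. Leaving Bcat KO library 1, Bcat KO library 2 or WT library 1 out left Ndufa6 and Ndufv3, and leaving WT library 3 out left these and Ndufb8.

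**Figure D1:**
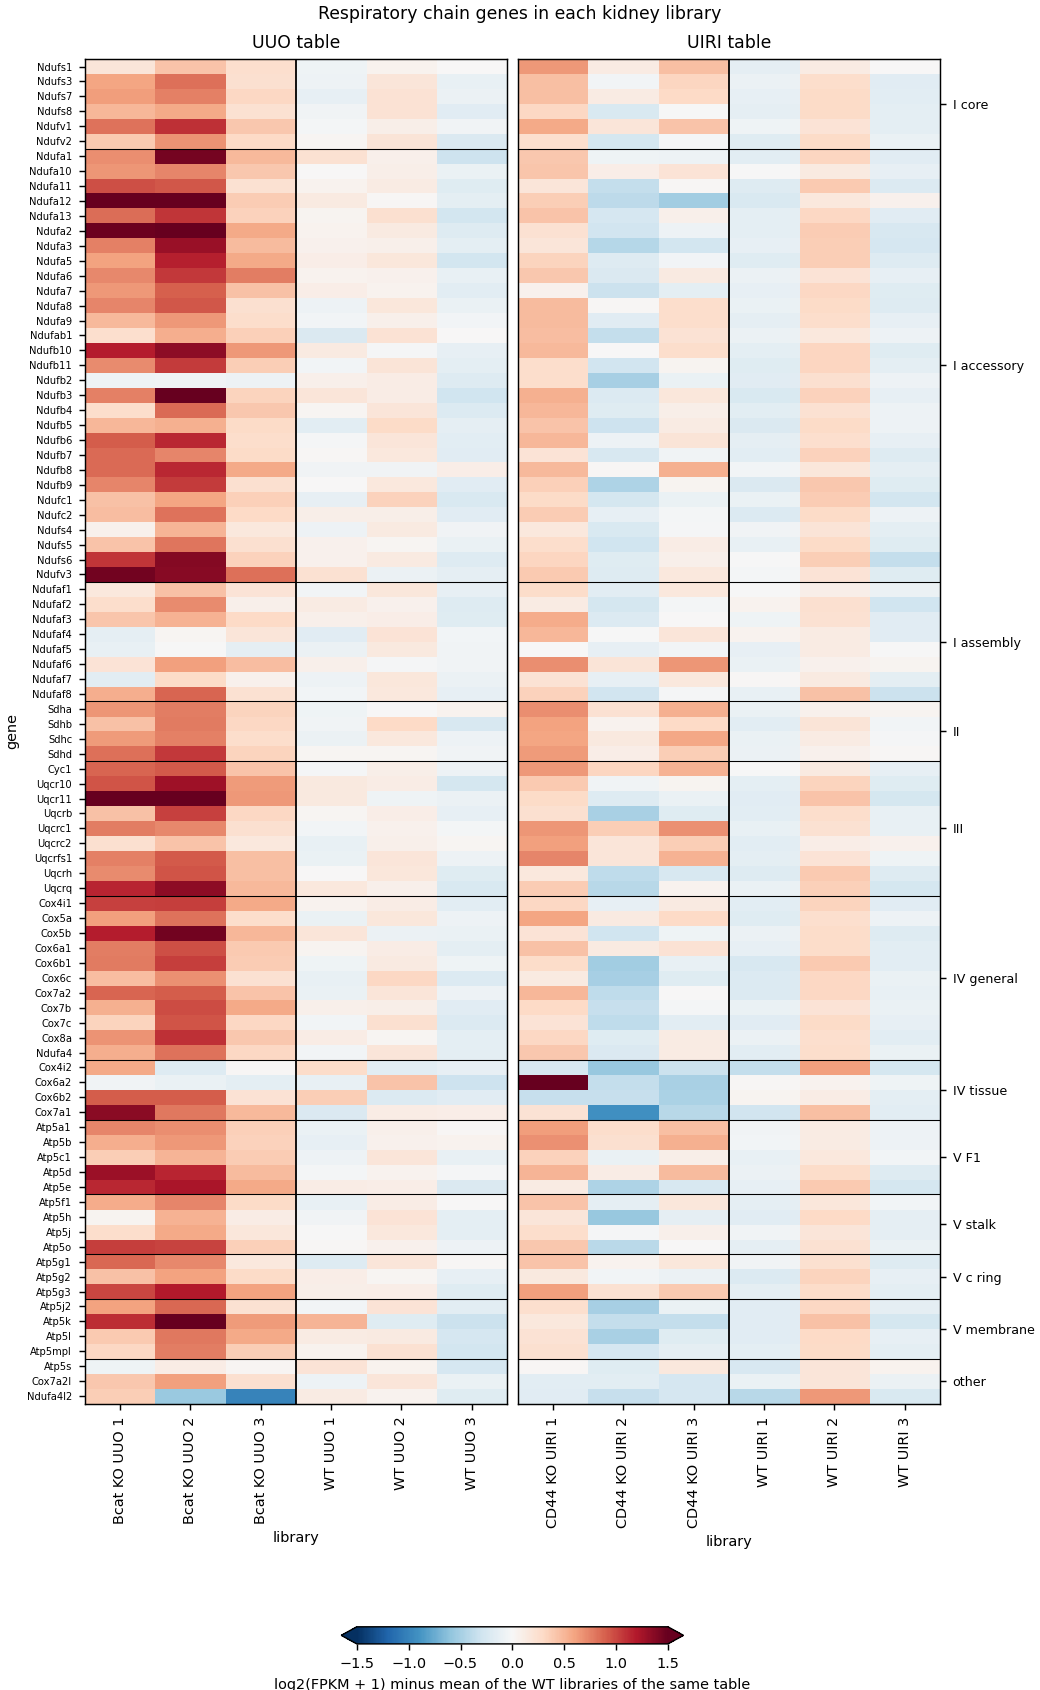
Log2(FPKM + 1) of 90 of the 91 tested members in each library, minus the mean of the WT libraries of the same table, with genes as rows grouped by class and libraries as columns. Colours beyond 1.5 in either direction are drawn at the end of the scale. The Bcat KO columns are red in nearly all rows and palest in library 3, whereas the CD44 KO columns are mixed, with library 2 mostly blue.

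Complex I, the largest complex, had 8 of 36 subunits higher in Bcat KO kidneys and 0 lower, with a median log2 fold change of 0.65. Its 7 nuclear-encoded core subunits carry the flavin and the iron-sulfur clusters or the quinone site, and 1 of them, Ndufv1, which binds NADH, was called. Ndufv1 measured 81.3, 98.7 and 60.9 FPKM in Bcat KO and 44.9, 48.6 and 44.1 FPKM in WT kidneys, a log2 fold change of 0.77 ± 0.18 (SE) with an adjusted p of 0.0402 in limma. The groups did not overlap, and the same held for each of the 7 core subunits. The core values ran from 0.29 for Ndufs1 to that of Ndufv1. Ndufs7, Ndufs3, Ndufv2 and Ndufs8 had log2 fold changes of 0.56, 0.55, 0.46 and 0.43, with adjusted p from 0.0659 to 0.118.

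The 29 accessory subunits, which surround the core and do not carry electrons, had a median of 0.71, and 7 of them were higher. Ndufa6, a subunit of the LYR family, had the smallest p of all members. It measured 78.8, 100.2 and 81.8 FPKM in Bcat KO and 49.3, 49.7 and 43.9 FPKM in WT kidneys, with a log2 fold change of 0.85 ± 0.13 and an adjusted p of 0.0154. Bcat KO library 3 was not low for this gene. Ndufv3, a subunit next to the NADH-binding site, measured 46.5, 44.0 and 29.9 FPKM against 19.5, 15.3 and 14.8, with a log2 fold change of 1.21 ± 0.19 and an adjusted p of 0.0154. Ndufb10, a membrane-arm subunit, rose by 1.06 ± 0.19 (adjusted p = 0.021).

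Larger fold changes did not always pass. Ndufa12 measured 34.6, 39.7 and 13.99 FPKM against 11.6, 10.7 and 9.34, with a log2 fold change of 1.28 ± 0.35 and an adjusted p of 0.0607. Its value in Bcat KO library 3 stood close to the WT values. Ndufa2 rose by 1.27 ± 0.30 (adjusted p = 0.0403). At the other end, Ndufb2 was at 3.37, 3.40 and 3.33 FPKM against 3.81, 3.95 and 2.99, a log2 fold change of −0.06, and was the only complex I subunit with a negative value. Ndufb2 overlaps Braf on the opposite strand, and the gene length of 5628 bases used for its FPKM is long for a small subunit.

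The assembly factors of complex I stood lower than its subunits. Of Ndufaf1 to Ndufaf8, 0 were called by limma, and 3 were higher at an unadjusted p below 0.05, beside 17% of all genes. Their median log2 fold change was 0.31, against 0.63 for all 80 tested subunits. Ndufaf8, Ndufaf6 and Ndufaf3 had the highest values, 0.55, 0.43 and 0.41, with adjusted p of 0.0893, 0.0784 and 0.0725. In these 3 the Bcat KO libraries all lay above WT, as in 19.6% of all genes. Ndufaf2 and Ndufaf1 were at 0.35 and 0.27, Ndufaf7 at 0.06, Ndufaf4 at 0.03 and Ndufaf5 at −0.08, all with overlapping groups. On the opposite strand, Ndufaf3 overlaps Impdh2 (means of 11.5 and 14.9 FPKM) and Ndufaf2 overlaps Smim15 (3.65 and 24.8 FPKM). Some reads of Ndufaf3 and Ndufaf2 may thus not be their own. Per library, the median of the 8 was 0.18, 0.48 and 0.19 in Bcat KO and −0.04, 0.15 and −0.10 in WT libraries. Under rescaling to equal FPKM totals their median was 0.13, with 5 positive and 3 negative values, and that of the subunits 0.43, while the median of all genes moved to −0.19. Relative to all genes, the subunits were thus 0.62 higher under both scalings and the assembly factors 0.30 and 0.32 higher.

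Complex II contains the succinate dehydrogenase flavoprotein Sdha, the iron-sulfur protein Sdhb and the membrane anchors Sdhc and Sdhd. All 4 genes were above WT in every Bcat KO library and Sdha passed the test. Sdha measured 104, 113 and 83.4 FPKM in Bcat KO and 63.0, 66.1 and 68.3 FPKM in WT kidneys, with a log2 fold change of 0.59 ± 0.14 and an adjusted p of 0.0444. Sdhd, Sdhc and Sdhb were at 0.74, 0.55 and 0.51 with adjusted p of 0.0534, 0.068 and 0.121.

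Complex III had the highest share of calls, 6 of 9 subunits. Uqcr11, one of its small accessory subunits, showed the largest log2 fold change of all members, 1.45 ± 0.32 (adjusted p = 0.0338). It measured 135, 149 and 60.9 FPKM in Bcat KO kidneys and 42.9, 36.7 and 36.3 FPKM in WT kidneys. Bcat KO libraries 1 and 2 lay far above WT and library 3 lay nearer to it. The small subunits Uqcrq, Uqcr10 and Uqcrh rose by 0.99, 0.95 and 0.70, with adjusted p of 0.0402, 0.0326 and 0.0444. Uqcrh reads may be shared with the processed pseudogene Gm12854, which overlaps it and was listed at a mean of 20.2 FPKM in the UUO table. Of the catalytic subunits, cytochrome c1 (Cyc1) rose by 0.74 ± 0.16 and the Rieske iron-sulfur protein (Uqcrfs1) by 0.71 ± 0.16, with adjusted p of 0.0327 and 0.0389. The core proteins Uqcrc1 and Uqcrc2, the large matrix subunits, were at 0.58 and 0.27 and were not called (adjusted p = 0.0623 and 0.194).

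Complex IV is cytochrome c oxidase. Of its 11 subunits for general use, 4 rose, and the median was 0.71. Cox4i1, the main form of subunit 4, measured 441, 443 and 320 FPKM against 223, 232 and 192, with a log2 fold change of 0.88 ± 0.18 and an adjusted p of 0.0277. Cox5b rose by 1.04 ± 0.24, Cox7a2 by 0.73 ± 0.17 and Cox7b by 0.69 ± 0.16, with adjusted p of 0.0389, 0.041 and 0.0399. Cox5a was at 0.56 (adjusted p = 0.0744) and Cox6c had the lowest value, 0.46 (adjusted p = 0.149).

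The forms of complex IV subunits that other tissues use were scarce. Cox8c and Cox7b2 had 0 reads in the UUO table, which allows up to 0.392 and 0.332 FPKM (3 reads in the shallowest library, counting error only), and Cox8b had 3 reads in 1 library. These 3 genes and the second Atp5o entry, with 0 reads in both tables, were not tested. Cox7a1, the form typical of heart and skeletal muscle, measured 7.93, 5.05 and 3.89 FPKM against 2.02, 2.79 and 2.75, a log2 fold change of 0.87 ± 0.23 (adjusted p = 0.052). Cox6b2, known as the testis form, was at 0.68 (adjusted p = 0.107), with overlapping groups. Cox4i2 and Cox6a2 were near the filter, at 0.13 and −0.10. Cox7a1 made up 2.78% ± 0.725 (SD, n = 3) of the summed FPKM of Cox7a1 and Cox7a2 in Bcat KO kidneys and 2.14% ± 0.31 in WT kidneys, and Cox6b2 made up 3.68% ± 0.455 and 3.74% ± 1.12 of Cox6b1 and Cox6b2, so both shares overlapped.

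In complex V, 4 of 16 tested subunits rose and all 16 values were positive. In the catalytic F1 head, Atp5e and Atp5d, the ε and δ subunits of the central stalk, rose by 0.97 ± 0.20 and 0.96 ± 0.22 (adjusted p = 0.0266 and 0.0351). The α, β and γ genes, Atp5a1, Atp5b and Atp5c1, were at 0.59, 0.51 and 0.42 with adjusted p of 0.0576, 0.0727 and 0.0916. Atp5b measured 404, 435 and 351 FPKM against 254, 290 and 287, and its groups did not overlap. Atp5o, of the peripheral stalk, rose by 0.80 ± 0.19 (adjusted p = 0.0431). Of the 4 membrane-domain subunits 0 were called by limma although all 4 had an unadjusted p below 0.05, with Atp5k highest at 1.12 ± 0.30 (adjusted p = 0.0562).

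The c ring, which turns as protons pass, is made from 3 genes that encode the same mature protein, and reads from their shared coding stretch may be split unevenly among them. Atp5g3 measured 196, 223 and 149 FPKM in Bcat KO and 103, 104 and 85.6 FPKM in WT kidneys, and rose by 0.93 ± 0.18 (adjusted p = 0.0246). Atp5g2 was at 0.44 and Atp5g1 at 0.58 (adjusted p = 0.074 and 0.104). Atp5g3 supplied 58.7%, 60.4% and 56.6% of the summed FPKM of the 3 genes in Bcat KO libraries and 51.6%, 51.4% and 49.2% in WT libraries. Atp5g2 supplied 30.7%, 31.0% and 35.2% against 40.1%, 37.9% and 39.7%. Neither share overlapped between genotypes, and with 3 kidneys a group an exact permutation test cannot give a two-sided p below 0.1.

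**Figure D2:**
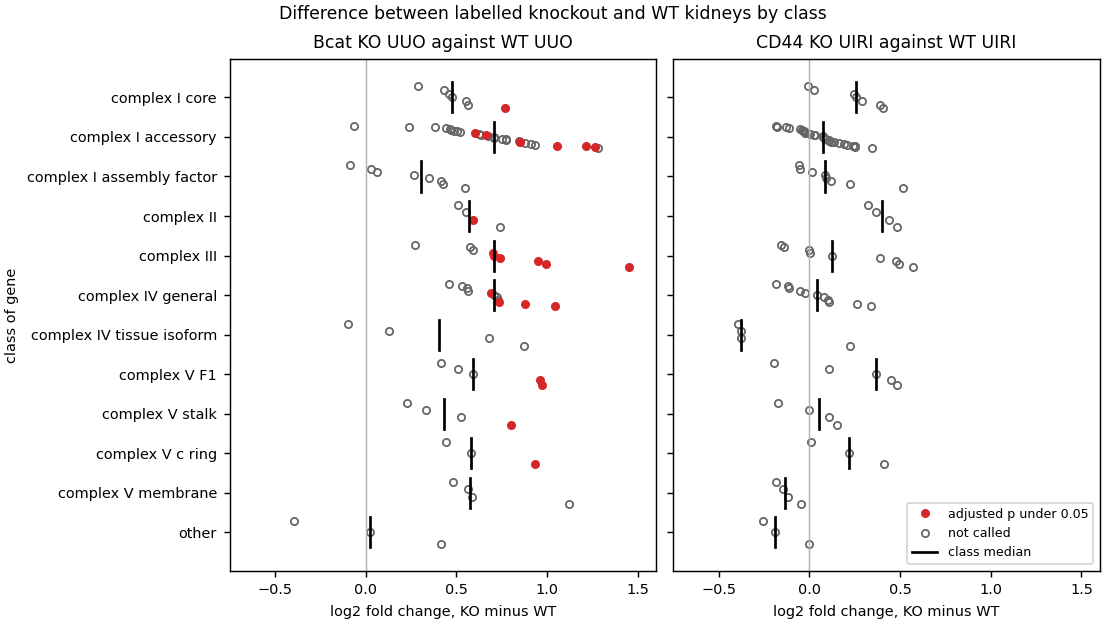
Log2 fold change of each tested member, by class, in the UUO table (left) and the UIRI table (right). Filled points passed an adjusted p of 0.05, open points did not, and bars mark class medians. The 23 filled points are all in the UUO panel, where the class medians of subunits run from 0.40 to 0.71, while in the UIRI panel they run from −0.38 to 0.40.

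The starts of 74 of the 94 named members were matched in RefSeq (GRCm38.p6), and the 250 bases before each start were searched on both strands for letters known from regulators of respiratory genes. The NRF1 core GCGCATGCG was found for 7 of 74 members (9.46%) and 1.64% of all 27025 genes with a promoter. The ETS letters CCGGAAG, read by factors such as GABP, were found for 14 members (18.9%) and 7.83% of all genes. The extended ERR letters TCAAGGTCA occurred for 1 member, Atp5g3, and 0.422% of all genes, the YY1 letters AAGATGGCG for 1 member, Atp5j, and 0.71%, and the TCF/LEF letters ATCAAAG, which β-catenin's partners bind, for 1 member, Ndufa5, and 3.72%. These are matches of letters, and whether a factor binds there was not measured.

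Shown are the windows of Uqcr11, with the largest change of all members, of Atp5e and Atp5g3, which rose in Bcat KO kidneys, of Cox6a1, which holds the NRF1 and ETS letters, and of Ndufaf4, an assembly factor that holds the NRF1 letters. Capitals mark the matches, and in Cox6a1 and Ndufaf4 the NRF1 letters match on both strands with an overlap. Coordinates are those of GRCm38, in the order Uqcr11 chr10:80406822-80407071, Atp5e chr2:174464102-174464351, Atp5g3 chr2:73911327-73911576 and Cox6a1 chr5:115348959-115349208, all on the minus strand, and Ndufaf4 chr4:24897833-24898082 on the plus strand. Letters are written 5′ to 3′ toward the start.
Uqcr11: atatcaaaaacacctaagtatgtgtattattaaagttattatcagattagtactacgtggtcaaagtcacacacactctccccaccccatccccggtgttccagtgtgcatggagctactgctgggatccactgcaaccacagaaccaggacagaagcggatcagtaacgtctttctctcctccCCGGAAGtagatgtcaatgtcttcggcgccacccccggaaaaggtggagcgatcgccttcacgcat
Atp5e: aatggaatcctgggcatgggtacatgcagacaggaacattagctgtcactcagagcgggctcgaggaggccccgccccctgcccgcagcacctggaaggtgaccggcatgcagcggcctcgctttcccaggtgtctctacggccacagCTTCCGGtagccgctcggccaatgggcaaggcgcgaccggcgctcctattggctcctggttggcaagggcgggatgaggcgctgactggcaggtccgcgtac
Atp5g3: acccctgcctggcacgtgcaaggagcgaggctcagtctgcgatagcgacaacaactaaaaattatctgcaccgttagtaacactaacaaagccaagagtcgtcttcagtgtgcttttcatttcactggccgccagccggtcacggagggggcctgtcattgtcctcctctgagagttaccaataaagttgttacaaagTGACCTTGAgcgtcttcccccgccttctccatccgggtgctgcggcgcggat
Cox6a1: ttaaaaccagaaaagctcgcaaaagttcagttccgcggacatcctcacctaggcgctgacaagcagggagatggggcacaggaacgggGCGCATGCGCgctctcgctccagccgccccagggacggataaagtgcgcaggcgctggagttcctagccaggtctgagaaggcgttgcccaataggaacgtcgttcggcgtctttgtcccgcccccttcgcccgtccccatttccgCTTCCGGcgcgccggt
Ndufaf4: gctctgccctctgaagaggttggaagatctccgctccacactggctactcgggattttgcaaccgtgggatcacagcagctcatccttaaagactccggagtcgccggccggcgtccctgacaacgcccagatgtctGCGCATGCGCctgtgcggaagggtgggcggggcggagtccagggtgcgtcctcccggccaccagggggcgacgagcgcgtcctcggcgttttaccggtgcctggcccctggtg

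Members with and without the matched letters had medians close to each other. In Bcat KO kidneys the median log2 fold change was 0.64 for the 7 members with the NRF1 core, 0.66 for the 14 with the ETS letters and 0.59 for the 53 tested members with neither. The members called numbered 0, 3 and 16. Uqcr11 and Atp5e, both with the ETS letters, were among the called genes, whereas Ndufaf4 was at 0.03 and Cox6a1 at 0.71 (adjusted p = 0.0629).

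Between kidneys labelled CD44 KO and WT UIRI kidneys no member passed the test. Of the 91 tested members, 0 were called higher and 0 lower by limma, against 4.02% higher and 2.19% lower among all 16113 genes tested. At an unadjusted p below 0.05, 13 members were higher and 1 lower, and voom on recovered reads called 2 higher, beside 6.48% of all genes. At that unadjusted p, 15.8% of all genes were higher and 11.2% lower. The median log2 fold change was 0.08 over the members and 0.00 over all genes. With FPKM totals made equal, the median was −0.05 over the subunits and −0.13 over all genes. The split of all genes moved from 648 higher and 353 lower to 153 and 349 (0.801% and 1.83% of the 19102 genes then tested). All values of the labelled knockout lay above WT in 9 members and below WT in 2, while 19.1% and 14.5% of all genes did so. The share of members that separated was therefore under that of all genes.

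The libraries within each UIRI group also varied. The subunit median was 0.39, −0.20 and 0.08 in libraries 1, 2 and 3 labelled CD44 KO, and −0.14, 0.28 and −0.14 in WT libraries 1, 2 and 3, so the groups overlapped. Library 2 labelled CD44 KO was the lowest of the 6 and WT library 2 the second highest. The FPKM totals over all genes were 416532, 374600 and 385427 in libraries 1, 2 and 3 labelled CD44 KO. In WT libraries 1, 2 and 3 they were 344060, 373866 and 353555. The part of these totals in the differences between libraries was not tested. Without library 2 labelled CD44 KO, 11 members were higher, namely Uqcrc1, Cyc1, Uqcrfs1, Sdha, Sdhc, Sdhd, Atp5a1, Atp5b, Ndufs1, Ndufb8 and Ndufaf6, beside 8.79% of all genes. Without any other library 0 members were called, beside 0 to 5 of all genes called higher. A subunit median of −0.07 resulted without library 1 labelled CD44 KO, and one of 0.22 without library 2 labelled CD44 KO or WT library 2.

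The 9 members with every labelled knockout value above WT were Sdha, Sdhc, Sdhd, Uqcrc1, Uqcrc2, Cyc1, Atp5a1, Atp5b and Ndufaf6. Uqcrc1 had the smallest adjusted p, 0.0609, with 102, 82.8 and 103 FPKM against 58.9, 75.2 and 58.9, a log2 fold change of 0.57 ± 0.14. Cyc1 measured 195, 155 and 179 FPKM against 124, 136 and 114, with a log2 fold change of 0.49 ± 0.12 and an adjusted p of 0.0643. These 2 were the members that voom called.

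Complex II had the highest median of the complexes, 0.40. Sdha measured 145, 104 and 129 FPKM in kidneys labelled CD44 KO and 82.7, 92.9 and 91.4 FPKM in WT kidneys, with a log2 fold change of 0.48 ± 0.14 and an adjusted p of 0.0817. Sdhc, Sdhd and Sdhb were at 0.44, 0.37 and 0.32 (adjusted p = 0.111, 0.179 and 0.269), and only Sdhb overlapped. Atp5b and Atp5a1, the β and α subunits of complex V, were at 0.49 ± 0.15 and 0.45 ± 0.14 (adjusted p = 0.0982 and 0.0959). Among complex I subunits Ndufs1 was highest, at 0.41 ± 0.15 (adjusted p = 0.136), with overlapping groups. Ndufs1 shares its locus with Eef1b2 on the opposite strand, at a mean of 143 FPKM against 17.3 FPKM for Ndufs1 in the same table, so some of its reads may not be its own. Of the assembly factors, Ndufaf6 stood out at 18.52, 12.71 and 17.99 FPKM against 10.2, 11.6 and 11.3, a log2 fold change of 0.52 ± 0.15 (adjusted p = 0.0823), and the other 7 were between −0.06 and 0.23.

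The medians were 0.37 for the F1 head of complex V, 0.26 for the complex I core, 0.22 for the c ring, 0.12 for complex III and 0.08 for the complex I accessory subunits. Complex IV had a median of −0.02, and Cox5a was its highest member at 0.34 (adjusted p = 0.231). Cox5b and Cox4i1, both higher in Bcat KO kidneys, were at −0.05 and 0.11. All 4 membrane-domain subunits of complex V were negative, with a median of −0.13. Cox6b2 measured 16.003, 15.92 and 14.51 FPKM in kidneys labelled CD44 KO and 21.2, 22.3 and 18.4 FPKM in WT kidneys, with a log2 fold change of −0.39 ± 0.10 and an adjusted p of 0.0614, and the groups did not overlap. With FPKM totals made equal, Cox6b2 was called lower, beside 1.83% of all genes. Cox7a1 and Cox4i2 were at −0.38 and −0.37 with overlapping groups, and Cox7a1 made up 5.54% ± 0.621 (SD, n = 3) of Cox7a1 and Cox7a2 in kidneys labelled CD44 KO and 7.39% ± 0.656 in WT kidneys, with no overlap.

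**Figure D3:**
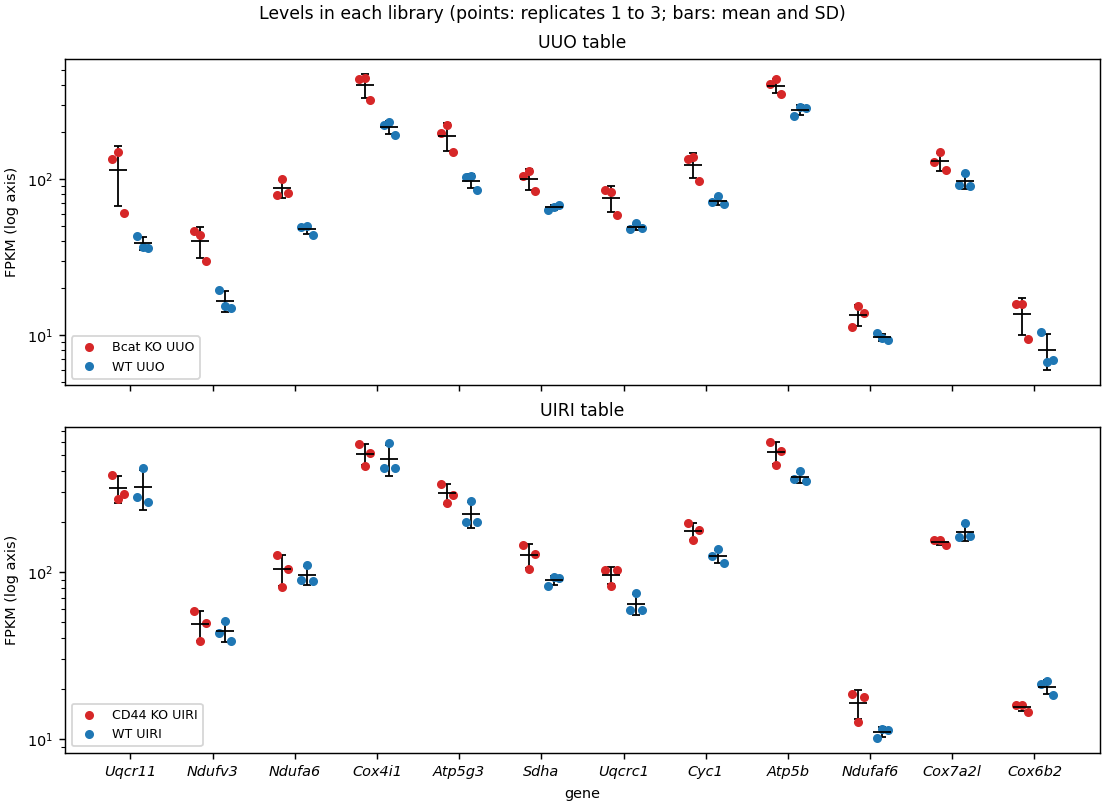
FPKM on a log axis of 12 members in each library of the UUO table (top) and the UIRI table (bottom), with points for replicates 1 to 3 and bars for the mean and SD. Uqcr11, Ndufv3, Ndufa6, Cox4i1 and Atp5g3 separate the groups in the UUO table and overlap in the UIRI table, whereas Sdha, Uqcrc1, Cyc1, Atp5b and Ndufaf6 separate them in both.

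The values of the core subunits and of the remaining subunits lay apart in the UIRI table, which is given as a description with no test. The list called core here held 24 nuclear genes, namely the 7 nuclear-encoded core subunits of complex I, the 4 subunits of complex II, Uqcrfs1, Cyc1, Uqcrc1 and Uqcrc2, Cox4i1, Cox5a and Cox5b, and the α, β, γ and c genes of complex V. Cox4i1, Cox5a and Cox5b were counted in it although the catalytic core of complex IV is encoded by the mitochondrial genome. The core list had a median log2 fold change of 0.35 between kidneys labelled CD44 KO and WT kidneys, with 22 of 24 positive. Of the 24, 8 were non-overlapping upward, beside 19.1% of all genes. At an unadjusted p below 0.05, 12 were higher, beside 15.8% of all genes. The gene lists had been chosen with earlier results of these data known. The other 56 tested subunits had a median of 0.01, with 30 positive and 26 negative, 0 non-overlapping upward and 0 higher at that p. The 9 non-overlapping members were thus 8 core genes and Ndufaf6.

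The core and the other subunits were also compared within each library. The core median minus the median of the other subunits, both relative to the WT mean, was 0.28, 0.41 and 0.36 in the libraries labelled CD44 KO and 0.03, −0.09 and 0.06 in WT libraries. The labelled knockout libraries lay above all WT libraries, library 2 included, although its subunits were low in level. In the UUO table the same difference was −0.07, −0.20 and −0.05 in Bcat KO and −0.10, −0.01 and 0.08 in WT libraries, which overlapped. The core median there was 0.56 and that of the other subunits 0.70. Rescaling to equal FPKM totals gave 0.22 for the core and −0.13 for the other subunits in the UIRI table, where the median of all genes moved to −0.13.

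Core genes were longer, with a median length of 2180 bases against 1217 bases for the others. Among subunits between 1000 and 4000 bases long, the UIRI medians were 0.33 for 18 core genes and −0.02 for 30 others. Over all protein-coding genes the UIRI median was −0.08 up to 1000 bases, 0.02 between 1000 and 4000 bases and 0.01 above that, and in the UUO table it was 0.26, 0.08 and −0.04. The 77 genes of cytosolic ribosomal proteins, also mostly short, had medians of −0.30 after UIRI and 0.18 after UUO. The part of transcript length in the changes of the short subunits was not tested.

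**Figure D4:**
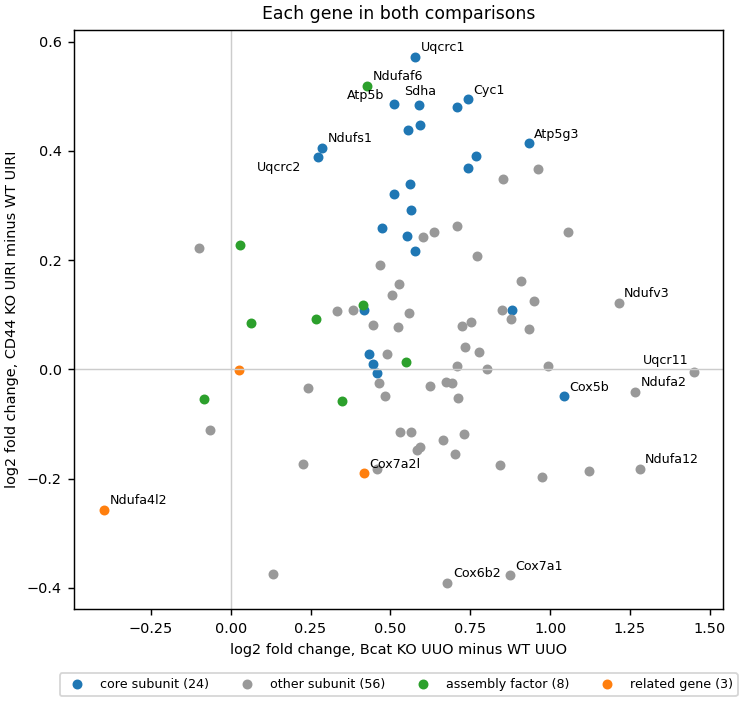
Log2 fold change of each tested member in the UUO table (x axis) and the UIRI table (y axis), coloured by kind, with the number of genes in the key. Core subunits reach the top of the plot, with 22 of 24 above 0 on the y axis, while the other subunits spread around 0 on that axis and extend farthest to the right.

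The difference between the 2 effects was tested directly. Over 91 members 0 passed at an adjusted p below 0.05 in limma, as against 0.00618% of all 16193 genes, and the lowest adjusted p was 0.178. At an unadjusted p below 0.05, 31 members had a higher effect in the UUO table and 0 a lower one, against 6.98% of all genes for the higher direction. The median difference was 0.46 over the members and −0.01 over all genes, and 83 of 91 were positive. Of these 31, 2 were core and 28 were other subunits, the last being Cox7a2l.

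By complex, the median difference was 0.73 for complex III, 0.65 for complex IV, 0.50 for complex I, 0.48 for complex V and 0.15 for complex II. For the core genes it was 0.26 and for the other subunits 0.69. Ndufv3, at 1.09 ± 0.28, had the smallest adjusted p. Uqcr11 differed by 1.45 ± 0.43, since it was at −0.00401 in the UIRI table, and Ndufa12 by 1.46 ± 0.48. Uqcrc1, Atp5b and Sdha differed by 0.01, 0.03 and 0.11, and Uqcrc2 and Ndufs1 by −0.12 each.

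Cox7a2l, a gene linked to the association of complexes III and IV, was the member that separated the groups in opposite directions. Whether its product acts so in these mice was not measured. Over all genes, 19.6% lay wholly above WT after UUO and 14.5% wholly below WT after UIRI. Cox7a2l measured 128, 149 and 114 FPKM in Bcat KO and 91.6, 110 and 90.1 FPKM in WT UUO kidneys, a log2 fold change of 0.42 ± 0.15 (adjusted p = 0.116). In the UIRI table it measured 154, 155 and 145 FPKM in kidneys labelled CD44 KO and 162, 196 and 163 FPKM in WT kidneys, a log2 fold change of −0.19 ± 0.11 (adjusted p = 0.321). Ndufa4l2, a relative of Ndufa4 known to be induced by low oxygen, was at −0.40 and −0.26 (adjusted p = 0.445 and 0.57), and its locus overlaps the more abundant Shmt2. Its share of Ndufa4 and Ndufa4l2 was 3.64%, 1.42% and 1.32% in Bcat KO and 4.47%, 3.66% and 3.74% in WT UUO libraries. Atp5s was at 0.03 and −0.00143.

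Genes of assembly outside the name rule moved less than the subunits in Bcat KO kidneys. Among other complex I assembly factors 1 of 9 was higher, among those of complex II 1 of 4, of complex III 0 of 6 (3 at an unadjusted p below 0.05), of complex IV 2 of 18, and among complex V factors with the inhibitor 1 of 5, and 0 were lower in these lists (0 also at an unadjusted p below 0.05, with limma). Their medians were 0.09, 0.37, 0.26, 0.26 and 0.15. Among all genes, 6.21% were called higher and 17% were higher at an unadjusted p below 0.05. The genes called in these lists were Dmac2 (0.41, adjusted p = 0.049), Sdhaf1 (0.85, adjusted p = 0.0459), Cox19 (0.50, adjusted p = 0.0329), Coa6 (0.72, adjusted p = 0.0386) and Fmc1 (0.85, adjusted p = 0.0235). In kidneys labelled CD44 KO, Ecsit was higher at 0.57, and Taco1 and Cox15, which serve complex IV, at 0.51 each, with adjusted p of 0.0344, 0.0312 and 0.0362. In that comparison 4.02% of all genes were called higher. The medians of the 5 lists there were 0.16, −0.03, 0.09, 0.18 and 0.03. The electron carrier Cycs was at 0.44 in Bcat KO kidneys and 0.29 in kidneys labelled CD44 KO (adjusted p = 0.184 and 0.419).

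Of 14 regulators of respiratory gene transcription, 2 rose in Bcat KO kidneys and 3 in kidneys labelled CD44 KO, beside 6.21% and 4.02% of all genes. Esrra, which encodes the receptor ERRα, was at 32.0 ± 6.49 against 16.4 ± 2.43 FPKM after UUO and 63.7 ± 5.93 against 41.8 ± 3.895 FPKM after UIRI (SD, n = 3), with log2 fold changes of 0.91 and 0.60 and adjusted p of 0.0255 and 0.0354. Polrmt, the mitochondrial RNA polymerase, rose by 0.41 and 0.42 (adjusted p = 0.0445 and 0.049), and the coactivator Ppargc1b rose in the UIRI table by 0.65 (adjusted p = 0.0427). The list medians were 0.02 and 0.15. Higd2a rose by 1.13 and 0.57 (adjusted p = 0.0268 and 0.0361). Higd1a and Mcub, listed beside Higd2a, were not called. Higd1a was at 0.42 and 0.03 (adjusted p = 0.196 and 0.925) and Mcub at −0.55 and −0.37 (adjusted p = 0.111 and 0.0806).

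Subunits encoded by the mitochondrial genome had medians of 0.44 after UUO and 0.46 after UIRI, with 12 of 13 positive in each. In each comparison 1 was called higher and 1 lower, beside 6.21% and 4.36% of all genes after UUO and 4.02% and 2.19% after UIRI. The higher were mt-Co2 in the UUO table, at 0.67, and mt-Nd5 in the UIRI table, at 0.66 (adjusted p = 0.0268 and 0.0491). The lower was mt-Nd3 in both, at 18.2 ± 4.13 against 53.8 ± 13.8 FPKM and 13.4 ± 4.36 against 79.0 ± 24.0 FPKM (SD, n = 3), log2 fold changes of −1.497 and −2.47 with adjusted p of 0.0153 and 0.0265. Copies of mitochondrial DNA in the nuclear genome can share reads with these genes, so their levels are uncertain.

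Cell type markers also moved with the genotype. Among all genes, 6.21% were called higher and 4.36% lower after UUO, and 4.02% and 2.19% after UIRI. At an unadjusted p below 0.05, 17% were higher and 12.9% lower after UUO, and 15.8% and 11.2% after UIRI. In Bcat KO kidneys 11 of 18 markers of the proximal tubule rose, and in kidneys labelled CD44 KO 6 did, with medians of 1.08 and 1.26 and all 18 positive in each. Their summed FPKM was 6507 to 10242 against 3609 to 6679 after UUO, with overlap, and 5818 to 16667 against 3567 to 4773 after UIRI. Kap was the largest part of these sums, at means of 5490 against 4129 FPKM after UUO and 9788 against 3118 FPKM after UIRI. It was not called in either table (log2 fold change 0.40 and 1.52, adjusted p = 0.556 and 0.0892 in limma). Of 8 thick ascending limb markers, 3 were higher in Bcat KO kidneys (median 0.78) and 0 in the UIRI table (0 higher and 1 lower at an unadjusted p below 0.05, median −0.29). Of 14 macrophage markers, 12 and 9 were lower (medians −1.08 and −0.84), with summed FPKM of 623 to 717 against 1199 to 1471 and 829 to 1450 against 2148 to 2216. Fibroblast markers were lower in 6 and 3 of 12, and T cell markers in 0 (3 at an unadjusted p below 0.05) and 4 of 8. Of 9 endothelial markers 2 and 0 were lower (5 and 2 at an unadjusted p below 0.05), and of 7 podocyte markers 0 were called in either table (3 and 0 lower at that p). Of distal convoluted tubule markers 1 of 6 was higher and 1 lower after UUO and 0 of 7 were called after UIRI (0 at that p), and of 9 collecting duct markers 1 and 0 were higher (2 and 2 at that p). Every marker list had members with reads. In the UUO table, these included Aqp1 (170 ± 8.33 against 63.6 ± 13.6 FPKM, SD, n = 3) and Slc34a1 (443 ± 173 against 138 ± 8.89 FPKM), both from the proximal tubule list. The part of cell composition in the respiratory chain values was not tested.

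**Figure D5:**
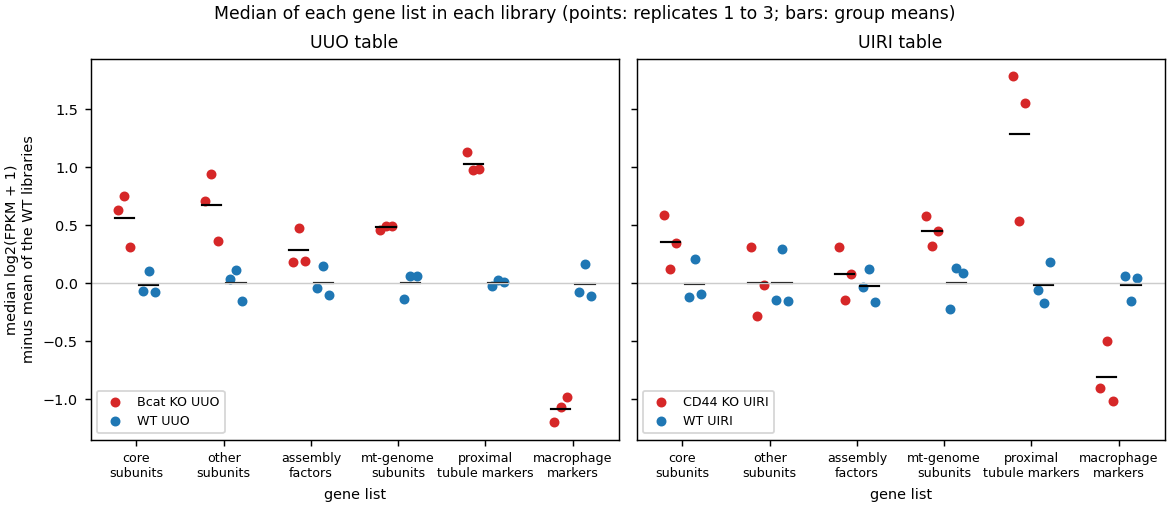
Median of each gene list in each library, as log2(FPKM + 1) minus the mean of the WT libraries of the same table, for the UUO table (left) and the UIRI table (right), with points for replicates 1 to 3 and bars for group means. Proximal tubule markers are higher and macrophage markers lower in both labelled knockouts, whereas the other subunits are clear of WT only in the UUO panel.

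Within the Bcat KO group the nuclear subunits were highest in library 2 and lowest in library 3, at 0.69, 0.90 and 0.35 in libraries 1, 2 and 3. The FPKM totals over all genes, 369431, 420601 and 346240, had this order too. Cycs had the same order, at 0.28, 0.84 and 0.18. So did the median of Higd1a, Higd2a and Mcub, at 0.30, 0.82 and 0.15, and that of the complex IV assembly factors, at 0.24, 0.40 and 0.05. Proximal tubule markers had medians of 1.13, 0.98 and 0.99, lowest in library 2. Their summed FPKM of 6507, 10242 and 7403, of which Kap was the largest part, was highest in library 2. Medians of macrophage markers were −1.20, −1.07 and −0.98, and those of mitochondrial-genome subunits 0.46, 0.50 and 0.50. In libraries labelled CD44 KO, proximal tubule markers were at 1.79, 0.53 and 1.56 and core subunits at 0.59, 0.12 and 0.35, both lowest in library 2.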

How the data were processed

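RNA was extracted with Trizol and libraries were made with a kit that the labels do not describe as strand-specific. Per the labels, the submitters' processing notes name HISAT2 2.0.5, featureCounts 1.5.0-p3, DESeq2 1.20.0 and GRCm38 (mm10), with no order. The authors deposited FPKM, scaled by gene length and library size, in 2 tables made separately. The members and gene lists were chosen with earlier results of these data known, and the genes named follow a written rule (core subunits, smallest p and extreme fold changes of each class, Ndufaf genes, isoform pairs). Log2(FPKM + 1) was compared with limma 3.58.1 (R 4.3.3, lmFit, eBayes with trend, two-sided) over every gene averaging 0.5 FPKM or more. Because of the added 1, fold changes of low genes are understated. P-values were adjusted by Benjamini-Hochberg (threshold 0.05). The difference of effects was a contrast over all 12 libraries. FPKM gave whole reads for 100% of values within 0.01, and voom on those reads called 1297 genes higher and 966 lower after UUO, and 1044 and 667 after UIRI. Replicate numbers were not taken as pairs. The labels do not say whether replicates share a litter, so p-values cover the spread between these kidneys. The procedure was tested on simulated data. Strand use in counting is not given in the sources used here, and 30 members overlap another gene of at least 0.5 FPKM. Coa1 and Atp5if1 were not found under these names. The values of 1 member are not reported here. RefSeq promoters were not analysed here for 20 members.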

Additional observations from a re-analysis of the deposited data

Results flagged for a closer look

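Cox7a2l was set apart because every Bcat KO library lay above every WT UUO library while every library labelled CD44 KO lay below every WT UIRI library. Over all genes, 19.6% lay wholly above WT after UUO and 14.5% wholly below WT after UIRI. The share of genes with both was not counted, and Cox7a2l was picked from the same values that were tested. The difference between both effects was 0.61 on the log2 scale (SE 0.18, unadjusted p = 0.00643), and it did not pass limma's adjustment over all genes (adjusted p = 0.215).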

How the results depend on the processing

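With 3 kidneys a group, the number of members called in Bcat KO kidneys depended on the setting, whereas their direction did not. Of 23 members called higher, testing genes with any read left 2, beside 0.946% of the 29604 genes then tested. Equal FPKM totals left 12, beside 2.5% of the 19472 genes then tested, and voom on recovered reads gave 45, beside 8.02% of all genes. Leaving out one library gave 0 to 60, while 130 to 1631 of all genes were called higher. The cause was not tested. With a pseudocount of 0.1 or a filter of 1 FPKM, 25 and 28 were called, beside 6.29% and 7.91% of the genes tested. All 23 were kept under both. In the UIRI table, voom called 2 members higher, beside 6.48% of all genes, and equal FPKM totals called 1 lower, beside 1.83% of the genes tested. Leaving out one library gave 0 to 11 higher, while 0 to 1417 of all genes were (0 to 5 in all but the one without library 2 labelled CD44 KO). The median of assembly factors in the UUO table fell to 0.13 with equal totals. Each gene's group mean was taken off, and what remained was correlated between the knockout and WT libraries of the same number. These correlations were 0.0802, 0.198 and 0.0434 after UUO and −0.143, −0.0251 and −0.0291 after UIRI, so the numbers were not taken as pairs. Libraries of different numbers were not compared in this way. The replicate block gave 36 members higher in the UUO table, 22 of them among the 23, beside 6.14% of all genes. In the UIRI table it gave 0 members, and it called 0 of all genes there. No alternative called a member lower in the UUO table or called a difference between both effects. Among members not called, signs turned for 3 (UUO) and 26 (UIRI) with equal totals.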
